A study of Mus musculus with 25 samples.

Results

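The comparison asked which effects of the prostaglandin receptor agonist BW245C on the liver depended on time after concanavalin A. For every gene, the difference between BW245C and vehicle at 3 hr was subtracted from the same difference at 24 hr, and the result is called the interaction below. It used 20 of the 25 arrays, 5 in each of 4 groups, and was computed for 15104 genes. All animals were C57BL/6NcrSlc female mice, and every array measured the liver of 1 mouse. The 4 groups had received concanavalin A (ConA) at 10 mg/kg and shortly afterwards an i.p. injection of either vehicle or BW245C at 1 mg/kg, and livers were taken at 3 hr (ConA+vehicle_3hr, ConA+BW245C_3hr) or at 24 hr (ConA+vehicle_24hr, ConA+BW245C_24hr). The remaining 5 mice were untreated (unstimulated liver) and had no ConA. Their arrays entered the estimate of the spread, the choice of genes and probes tested, and the reference levels given beside some genes. They also entered the slide terms of the fits that held the slide on all arrays. The age of the mice is not given in the sources used here. A whole-liver extract holds hepatocytes, endothelium and blood-borne cells together, so fewer cells of a type and less RNA per cell cannot be told apart.

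ConA is a plant lectin that activates T lymphocytes, and in mice it causes an immune-mediated hepatitis in which cytokines, neutrophils and loss of hepatocyte function follow each other over hours to a day. DP1, encoded by Ptgdr, is a receptor for prostaglandin D2 that couples to the stimulatory G protein and raises cAMP, and BW245C is a selective agonist of it. An interaction above 0 arises when an effect of the agonist was more positive, or less negative, at 24 hr than at 3 hr, and an interaction below 0 when it was the other way round. All levels are log2 of the array intensity minus the 75th percentile of the array, differences are on the same log2 scale, and a level compares arrays for 1 gene and not genes with each other.

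Between 52.2% and 61.6% of the spots on an array were well above background. The 12 measured hepatocyte markers had a mean level between 7.94 and 9.39 on every array of the 4 groups. One array stood apart: ConA+BW245C_24hr replicate 4 had a mean level of 6.54 over the 7 measured markers of the exocrine pancreas, against -1.84 to -0.40 on the other 19 arrays of the 4 groups. The slide on which an array lay was tied to its group. All 5 ConA+BW245C_3hr arrays were on slide 3, with 2 of the vehicle arrays of that time. The other 3 vehicle arrays of 3 hr were on slides 1 and 2. At 24 hr, 4 of the vehicle and 3 of the BW245C arrays were on slide 4. The other vehicle array was on slide 3, and the other BW245C arrays were on slides 2 and 5. The array on slide 5 was the only one there, so it adds nothing to estimates with a fixed block for the slide. The interaction is therefore given without the slide and in a slide-adjusted fit that holds the slide as a block, and the arrays of slides 3 and 4 alone are named where they ended a call that the slide-adjusted fit had kept. Of 95 called genes described here, 72 were also called in the slide-adjusted fit, and 17 of these 72 were not called on slides 3 and 4 alone, which left 55. These genes were picked after their values were seen. Of all 4701 genes called without the slide, 739 were called in the slide-adjusted fit with the same direction, and 374 on slides 3 and 4 alone. The background correction changed the size of some interactions. With a normexp background, in place of the processed signal of the scanner, the interaction as a fold (not in log2) was smaller by over 1.5 times in 29 of the 95 genes. It was larger by that much in 0, and was not called in 5. Ptgdr and Ptgdr2, the receptors of prostaglandin D2, were well above background on 0 of 25 arrays, and Hpgds, which makes prostaglandin D2, on 2 untreated arrays only, so none of them could be tested.

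The effect of BW245C differed between the times for a large part of the transcriptome. Of 15104 genes, 4701 (31.1%) had an interaction with an adjusted p under 0.05 (limma with Benjamini-Hochberg adjustment), 3215 (21.3%) above 0 and 1486 (9.84%) below 0. A 2-fold size was reached by 1170 of them, 635 above and 535 below 0. The effect at 3 hr itself passed in 4378 genes (29%), with 1598 higher and 2780 lower, and the effect at 24 hr in 3959 (26.2%), with 2714 higher and 1245 lower. Among the 4701 genes, 1814 had an effect that passed at 24 hr only and so appeared with time, and 1507 of these had a positive interaction. Another 1815 had an effect that passed at 3 hr only and so vanished, 344 passed at both times in opposite directions and so reversed, 46 passed at both in the same direction, and 682 passed at neither. A gene whose effect passed at 1 time and not at the other is placed by the thresholds, while its interaction is the test of the difference. In the counts of gene lists that follow, an interaction above or below 0 is one that passed the adjusted p, and higher or lower at a time is an effect that passed.

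**Figure D1:**
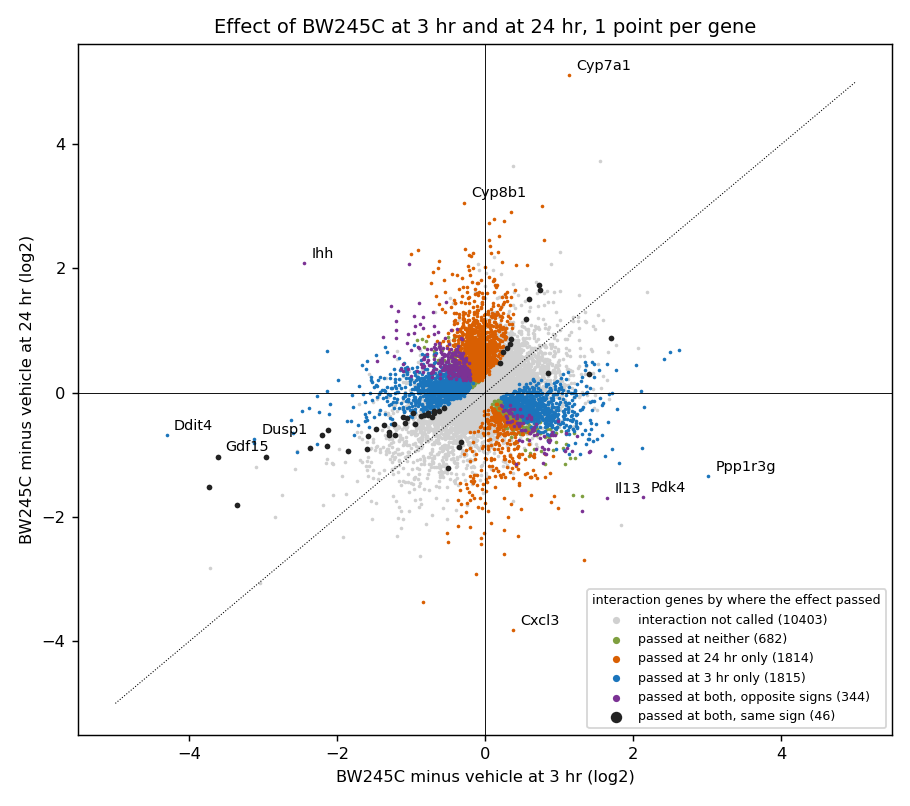
Each point is 1 of 15104 genes, with the effect of BW245C at 3 hr (log2, x axis) against that at 24 hr (log2, y axis), coloured by the class of the interaction genes. The dotted line marks equal effects. Genes that appeared, such as Cyp7a1 and Cxcl3, lie along the vertical axis, those that vanished, such as Ddit4 and Ppp1r3g, along the horizontal axis, and those that reversed, such as Ihh and Pdk4, in the upper left and lower right corners.

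The count of called genes was smaller with the slide in the fit, while the direction mostly stayed. In the slide-adjusted fit, 933 genes (6.18%) were called, 539 higher (3.57%) and 394 lower (2.61%), and 739 of them were among the 4701 with the same direction. On slides 3 and 4 alone, 454 genes (3.01%) were called and 374 were shared. Of the 4701 genes, 4561 kept their sign after slide adjustment. Of the genes that reversed, 141 of 263 with a positive and 39 of 81 with a negative interaction were called in the slide-adjusted fit, of those that appeared 224 of 1507 and 79 of 307, and of those that vanished 143 of 1068 and 83 of 747. Of those that passed at neither time 4 of 337 and 16 of 345 were called there, and of those that passed at both times in 1 direction 5 of 40 and 5 of 6. The class itself often changed in genes that had reversed: in that fit 58 of the 180 called still reversed, 95 appeared, 23 vanished and 4 passed at neither time. Of the 303 that had appeared and were called, 297 appeared there too, and of the 226 that had vanished 203 vanished there too and 18 reversed. The median interaction over all genes was 0.14 without the slide and -0.0012 with it. It also followed the level of the gene, from -0.25 in the dimmest of 5 equal groups of genes to 0.33 in the brightest. In the brightest group 1190 of 3021 genes were called above 0 and 117 below, and in the dimmest 177 and 392. The lists of bright genes below, among them those of hepatocyte metabolism, are to be read beside the counts of the brightest group. On the deposited series matrix values, which carry 1 other factor per array, the median was -0.12 and the split turned, with 1435 genes called higher and 3052 lower.

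The effects that reversed included the smallest adjusted p-values of the comparison. Ihh, Smad6, Olfml1, Fgfr3 and Acvr1 were lower with BW245C at 3 hr and higher at 24 hr, and Pdk4, Il4, Il13, Camk2n2 and Grrp1 were higher at 3 hr and lower at 24 hr. Ihh encodes a secreted ligand of the hedgehog pathway. Its level at 3 hr was -3.71, -3.72, -2.72, -3.80 and -3.72 on the vehicle arrays and -5.83, -6.32, -5.71, -5.97 and -6.06 with BW245C. By 24 hr Ihh stood at -3.16, -2.94, -2.45, -3.23 and -1.72 with vehicle and at -0.60, 0.44, -1.38, -0.85 and -0.72 with the agonist. The groups did not overlap at either time, every BW245C array was the lower at 3 hr and the higher at 24 hr, and untreated livers ranged from -1.48 to -0.091 (median -1.30). No BW245C array at 3 hr was well above background for Ihh, so the fall there was at least 1.63-fold, the rise at 24 hr was 4.23-fold (adjusted p = 7.1e-05), and the effect at 24 hr exceeded that at 3 hr by at least 6.89-fold. The adjusted p of the interaction was 3.4e-06, 0.00018 after slide adjustment and 0.0022 on slides 3 and 4 alone. Part of its fitted size rests on signals below background, and with a normexp background the fitted interaction was 1.70, from -0.42 at 3 hr and 1.28 at 24 hr.

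Smad6 and Smad7, inhibitors of signalling by BMP and TGF-beta, and Acvr1 were lower with BW245C at 3 hr. Smad6, an inhibitor of BMP signalling, lay at -1.02, 0.012, 0.14, -0.43 and -0.10 with vehicle and at -1.65, -1.91, -1.64, -1.64 and -1.88 with BW245C at 3 hr. At 24 hr it lay at -1.18, -0.97, -1.09, -1.39 and -1.10 with vehicle and at -0.59, -0.49, -0.69, -0.64 and -0.76 with the agonist. The groups were apart at both times, with every BW245C array below vehicle at 3 hr and above it at 24 hr. The effect was -1.47 at 3 hr (adjusted p = 6.7e-07) and 0.52 at 24 hr (adjusted p = 0.012), and the interaction was 1.98 ± 0.21 (SE; adjusted p = 3.9e-06). Acvr1, a type I receptor of BMPs and activins, had an effect of -1.0 at 3 hr and 0.27 at 24 hr, with an interaction of 1.27 ± 0.12 (SE; adjusted p = 9.5e-07). Smad7, an inhibitor of TGF-beta signalling, vanished rather than reversed, with -1.65 at 3 hr and -0.026 at 24 hr. Its interaction of 1.63 ± 0.26 (SE; adjusted p = 0.0002) was 1.90 after slide adjustment (adjusted p = 0.0025), and those of Smad6 and Acvr1 were 2.05 and 1.09 (adjusted p = 0.00045 and 0.00018). In that fit Acvr1 vanished rather than reversed, as its effect at 24 hr was 0.20 (adjusted p = 0.067), and for Smad6 a normexp background gave an interaction of 1.39.

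Olfml1, Fgfr3 and Cyp2g1 reversed in the same direction. Olfml1, a secreted olfactomedin-like protein, stood at 0.80, 0.73, 1.24, 1.05 and 0.90 with vehicle and 0.53, 0.55, 0.20, 0.37 and 0.38 with BW245C at 3 hr, and at -0.86, -0.32, -0.42, -0.73 and -0.54 with vehicle and 0.87, 1.44, 0.92, 0.76 and 0.40 with the agonist at 24 hr. Neither pair of groups overlapped, and its interaction was 1.99 ± 0.21 (SE; adjusted p = 3.5e-06). Fgfr3, a receptor of fibroblast growth factors, went from an effect of -0.78 to one of 0.62. Cyp2g1, a cytochrome P450, had effects of -1.04 and 2.08. All 3 had an interaction above 0 in the slide-adjusted fit too, from 1.30 in Fgfr3 to 3.47 in Cyp2g1, with adjusted p-values of at most 0.0046. There the fall of Cyp2g1 at 3 hr did not pass (-1.21, adjusted p = 0.088), so that it appeared rather than reversed, and with a normexp background its interaction was 2.10 in place of 3.11. Atp6v0d2, a subunit of the proton pump of acidic vesicles, had effects of -1.27 and 1.4 but an adjusted p of 0.072 for the interaction after slide adjustment.

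Hepatocyte transcription factors had interactions above 0 without the slide. Of 20 measured, 10 had an interaction above 0 (21.3% of all genes did) and 0 below 0, with a median of 0.52 against 0.14 over all genes. In the list 4 reversed, against 344 of all 15104 genes. Cebpa, a factor that maintains hepatocyte gene expression, stood at 3.90, 4.57, 4.06, 4.14 and 4.04 with vehicle and 3.07, 2.85, 3.45, 3.62 and 3.37 with BW245C at 3 hr, and at 3.01, 3.17, 3.17, 3.29 and 3.21 with vehicle and 3.73, 3.72, 3.61, 3.22 and 3.85 with the agonist at 24 hr. The groups were apart at 3 hr and met at 24 hr, where 1 BW245C array lay within the vehicle range. Its interaction was 1.33 ± 0.20 (SE; adjusted p = 0.00012). Prox1, a homeobox factor of hepatocytes and lymphatic endothelium, had effects of -0.85 and 0.43, and Nr5a2, a nuclear receptor of bile acid and cholesterol genes, of -0.65 and 0.48. Their interactions were 1.28 and 1.13, and 3 members of the list were called higher in the slide-adjusted fit, these 2 and Cebpa, with values of 1.24, 0.99 and 1.17, against 3.57% of all genes. None of the 3 reversed in that fit: the rise at 24 hr did not pass in Cebpa (0.37, adjusted p = 0.09) and Prox1 (0.46, adjusted p = 0.056), nor the fall at 3 hr in Nr5a2 (-0.51, adjusted p = 0.07). Nr5a2 was not called on slides 3 and 4 alone (adjusted p = 0.0539).

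Pdk4, with the opposite reversal, encodes a kinase that shuts off pyruvate dehydrogenase when fat is burned. Pdk4 at 3 hr was 2.45, 1.99, 1.49, 1.75 and 0.37 with vehicle and 3.38, 3.78, 4.05, 3.75 and 3.73 with BW245C. At 24 hr it was 3.12, 2.78, 2.27, 2.85 and 2.46 with vehicle and 0.77, 0.21, 1.94, 0.93 and 1.20 with BW245C, while untreated livers ranged from 1.88 to 3.01 (median 2.51). All 5 BW245C arrays were above vehicle at 3 hr and below it at 24 hr. The agonist thus raised Pdk4 4.37-fold at 3 hr (adjusted p = 5.4e-05) and lowered it 3.21-fold at 24 hr (adjusted p = 0.00049). Its interaction was -3.81 ± 0.45 (SE; adjusted p = 1.2e-05), and -4.64 after slide adjustment (adjusted p = 1.9e-05).

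Il4 and Il13, cytokines of type 2 helper T cells and of natural killer T cells that lie next to each other on chromosome 11, also changed direction. Il4 at 3 hr was -1.25, -1.31, -1.24, -1.11 and -0.81 with vehicle and 0.18, 0.23, -0.31, -0.30 and -0.13 with BW245C, and at 24 hr it was -2.84, -2.35, -2.92, -2.16 and -2.98 with vehicle and -3.61, -4.01, -3.42, -3.56 and -3.38 with the agonist. No array of BW245C overlapped with vehicle at either time, and untreated livers ranged from -4.33 to -4.21 (median -4.28). Il4 was 2.11-fold higher at 3 hr and 1.93-fold lower at 24 hr, with an interaction of -2.03 ± 0.22 (SE; adjusted p = 4.7e-06). For Il13 the 3 hr values were -2.77, -2.92, -2.79, -3.34 and -2.71 with vehicle and -0.74, -1.10, -1.21, -1.45 and -1.80 with BW245C, and those at 24 hr -3.42, -2.13, -3.80, -2.61 and -4.28 with vehicle and -5.52, -6.45, -4.28, -4.01 and -4.47 with the agonist. The groups were apart at 3 hr and met at 24 hr, where 3 of 5 BW245C arrays were well above background. Its interaction was -3.35 ± 0.54 (SE; adjusted p = 0.00022). With a normexp background both sizes were smaller, at -1.05 for Il4 and -1.22 for Il13. In the slide-adjusted fit the values were -2.0 for Il4 and -3.86 for Il13 (adjusted p = 0.0012 and 0.0049).

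Further genes of this direction were Camk2n2, an inhibitor of a calcium-dependent kinase, with effects of 0.98 and -0.45, Grrp1, of 1.09 and -0.64, and Itgb3, an integrin subunit of platelets and other cells, of 0.86 and -0.79. Each was called after slide adjustment, with -1.55, -2.03 and -2.09, and for Grrp1 a normexp background gave -0.59 in place of -1.73. Olfr469, an olfactory receptor gene, had effects of 1.30 and -1.91, and its interaction shrank from -3.21 to -1.18 in the slide-adjusted fit (adjusted p = 0.02), where its effect at 3 hr was 0.051 (adjusted p = 0.9), so that it no longer reversed. A normexp background gave -1.98.

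Hepatocyte genes of bile acid and drug metabolism were higher with BW245C at 24 hr. The mean level of the hepatocyte markers at 24 hr ranged from 7.94 to 8.43 with vehicle and from 8.10 to 8.61 with the agonist, which overlapped, and its part in these results was not tested. Of 23 measured genes of bile acid synthesis and transport, 16 had an interaction above 0 (21.3% of all genes did) and 0 below 0. Among 3021 genes of the brightest of 5 equal groups, 1190 were above 0. The median was 0.83 in the list and 0.14 over all genes, and 17 of the list were higher with BW245C at 24 hr (18% of all genes) against 0 at 3 hr (10.6% of all genes). After slide adjustment 6 were called higher, against 3.57% of all genes. Cyp7a1, the rate-limiting enzyme of bile acid synthesis, was at -4.12, -5.30, -3.93, -2.82 and -0.98 with vehicle and -3.1, -3.46, -3.08, -1.78 and -0.11 with BW245C at 3 hr. At 24 hr it was at -5.16, -3.34, -3.17, -6.72 and -3.49 with vehicle and 0.97, 1.08, 0.66, 0.75 and 0.19 with the agonist, and untreated livers ranged from 3.21 to 3.94 (median 3.81). Both groups overlapped at 3 hr, 3 of 5 vehicle arrays were well above background at either time, and at 24 hr every BW245C array was at least 0.19 and every vehicle array at most -3.17. The agonist effect at 24 hr was 5.11 (adjusted p = 2.7e-05), that at 3 hr 1.12 (adjusted p = 0.24), and the interaction 3.98 ± 1.0 (SE; adjusted p = 0.0059). It was 5.60 in the slide-adjusted fit (adjusted p = 0.015) and 5.52 on slides 3 and 4 alone, where it was not called (adjusted p = 0.0504), and 2.67 with a normexp background.

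Cyp8b1, the sterol hydroxylase that makes cholic acid, behaved likewise. Its values were 1.97, 1.28, 2.01, 1.42 and 1.28 with vehicle and 1.01, 0.25, 1.63, 1.54 and 2.08 with BW245C at 3 hr, and -3.12, -1.54, -2.17, -3.22 and -1.51 with vehicle and 1.05, 1.06, 0.98, 0.050 and 0.60 with the agonist at 24 hr. The groups overlapped at 3 hr and were apart at 24 hr, where the agonist was 8.33-fold above vehicle. The interaction was 3.35 ± 0.47 (SE; adjusted p = 6.9e-05). Akr1d1, the reductase that acts next in the pathway, was 4.81-fold higher at 24 hr, with an interaction of 2.10, and Slco1b2, the sinusoidal transporter that brings bile acids into the hepatocyte, was 2.73-fold higher, with 1.72. After slide adjustment these became 2.89 for Cyp8b1, 2.19 for Akr1d1 and 1.37 for Slco1b2, with adjusted p-values of at most 0.015. On slides 3 and 4 alone Slco1b2 was not called (adjusted p = 0.0575), and with a normexp background Cyp8b1 had 2.53. Slco1b2 at 3 hr ranged from 7.74 to 8.28 with vehicle and from 7.45 to 8.04 with BW245C. At 24 hr it ranged from 4.96 to 5.72 with vehicle and from 6.15 to 7.28 with the agonist.

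The pericentral genes, which mark hepatocytes near the central vein and hold much of the drug metabolism, and the periportal genes of the other end of the lobule were both counted. Of 18 pericentral genes 16 had an interaction above 0 and 0 below 0 (median 1.13), and of 20 periportal genes 3 and 1 (median 0.17), where 21.3% of all genes were above 0 and 9.84% below. The periportal counts are thus no result about that list. Slide adjustment left 5 of 18 and 0 of 20 higher, against 3.57% of all genes. Cyp2e1, a P450 of alcohol and drug oxidation, was at 10.19, 10.38, 10.10, 9.98 and 9.76 with vehicle and 9.37, 9.46, 9.73, 9.61 and 9.90 with BW245C at 3 hr, and at 7.04, 7.59, 7.56, 7.06 and 7.87 with vehicle and 8.70, 9.0, 9.20, 8.13 and 8.98 with the agonist at 24 hr. The arrays of the 2 groups overlapped at 3 hr, and at 24 hr all BW245C arrays were higher by a factor of 2.60 on the mean. Its interaction was 1.85 ± 0.25 (SE; adjusted p = 5.3e-05), and that of Gulo, the last enzyme of vitamin C synthesis, 1.49 ± 0.24 (SE; adjusted p = 0.00023). Rnf43, an inhibitor of Wnt signalling, was lower at 3 hr (-1.38) and higher at 24 hr (0.90). In the slide-adjusted fit the interactions were 1.36 for Cyp2e1, 0.95 for Gulo and 2.43 for Rnf43. Gulo was not called on slides 3 and 4 alone (adjusted p = 0.0501), and Rnf43 had 1.68 with a normexp background in place of 2.29.

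Drug-metabolising enzymes followed the same course. Of 35 cytochromes P450 22 had an interaction above 0 and 1 below 0 (median 0.83, 3 called higher after slide adjustment), and of 33 conjugation enzymes 21 and 0 (median 0.91, 5), against 21.3% of all genes above 0 and 3.57% after slide adjustment. Sult1c2, a sulfotransferase, was at -1.86, -1.39, -1.59, -1.71 and -1.90 with vehicle and -0.23, 0.37, 0.34, 0.012 and 0.0036 with BW245C at 24 hr, and its effect was -0.19 at 3 hr and 1.79 at 24 hr. Gsta3, a glutathione transferase, had an interaction of 1.70. Cyp2c54, a P450 with close relatives whose transcripts the probe may share, had 1.88. Each of these 3 was called in the slide-adjusted fit, with 2.08 for Sult1c2, 1.12 for Gsta3 and 1.48 for Cyp2c54, but on slides 3 and 4 alone Gsta3 and Cyp2c54 were not (adjusted p = 0.0589 for both). The steroid dehydrogenases Hsd3b2 and Hsd3b6, near-identical relatives that the probes may not separate, had interactions of 2.68 and 2.52, with adjusted p = 0.07 and 0.044 in the slide-adjusted fit. On slides 3 and 4 alone Hsd3b6 was not called (adjusted p = 0.114), and with a normexp background its interaction was 1.47. Hsd3b1 was not well above background on any vehicle array of 24 hr. Its rise at 24 hr was at least 1.28-fold, and its call was lost without any of 11 arrays. The same background limit held for Clec2h, a C-type lectin, with a rise of at least 2.94-fold. Neither was called after slide adjustment (adjusted p = 0.15 and 0.13) or with a normexp background (adjusted p = 0.06 and 0.063). With that background the effect of Clec2h at 24 hr was 0.73 and its interaction 0.58.

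Among genes of the growth hormone axis and genes expressed more in 1 sex, 13 of 30 had an interaction above 0 (21.3% of all genes did) and 1 below 0. Among 3021 genes of the brightest of 5 equal groups, 1190 were above 0. The list count lies near that share and is by itself no result about the list. The median was 1.01 in the list and 0.33 in the brightest group. In the slide-adjusted fit 3 members were called higher (3.57% of all genes). Keg1 (Glyat-like, expressed in kidney and liver) was at -2.64, -1.01, -1.23, -2.20 and -1.16 with vehicle and 1.05, 1.5, 1.92, -0.30 and 1.21 with BW245C at 24 hr, apart in all arrays, and its interaction was 2.68 ± 0.48 (SE; adjusted p = 0.00055). It was 2.29 after slide adjustment (adjusted p = 0.047) and was not called on slides 3 and 4 alone (adjusted p = 0.0642). Igfals, which encodes the acid-labile subunit of the circulating IGF complex, had 2.28 ± 0.40 (SE; adjusted p = 0.00048), and 1.74 after slide adjustment (adjusted p = 0.053). Hsd17b6, an enzyme of androgen metabolism, had effects of -0.62 and 2.11 and an interaction of 2.74.

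The promoters of Keg1 and Slco1b2 are shown because growth hormone acts on liver through STAT5, whose binding motif is written TTCNNNGAA. The windows are the 250 bases before the annotated start from RefSeq (GRCm38.p6), and capitals mark matches. The motif was searched on both strands and occurs in 8.13% of the promoters of 27025 genes, and among the tested genes in 7.57% of all against 7.05% of those that appeared with a positive interaction. Keg1 lies at chr19:12695540-12695789 on the plus strand and Slco1b2 at chr6:141629268-141629517 on the plus strand.
Keg1: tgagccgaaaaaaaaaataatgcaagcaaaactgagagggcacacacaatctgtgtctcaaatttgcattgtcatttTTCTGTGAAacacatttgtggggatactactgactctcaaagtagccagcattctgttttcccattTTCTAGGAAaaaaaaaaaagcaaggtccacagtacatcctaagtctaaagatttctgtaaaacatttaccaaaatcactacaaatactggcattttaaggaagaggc
Slco1b2: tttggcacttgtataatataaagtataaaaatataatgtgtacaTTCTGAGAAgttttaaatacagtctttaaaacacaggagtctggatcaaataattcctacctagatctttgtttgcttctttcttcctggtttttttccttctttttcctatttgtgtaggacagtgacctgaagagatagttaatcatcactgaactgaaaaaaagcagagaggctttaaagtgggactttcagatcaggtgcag
A match describes the letters in the window and is not a binding site.

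Lists of hepatocyte secreted proteins, urea cycle and amino acid genes, respiratory chain genes and ribosomal proteins also had interactions above 0. Of 29 secreted proteins of the hepatocyte 20 had an interaction above 0, of 29 urea cycle and amino acid genes 16, of 25 respiratory chain genes 14 and of 30 ribosomal proteins 16, with 0, 0, 0 and 0 below 0. Over all genes 21.3% were above 0. The medians were 0.60, 0.65, 0.40 and 0.35, while among all 3021 genes of the brightest of 5 equal groups 1190 were above 0, with a median of 0.33. The slide-adjusted fit called 2, 4, 0 and 0 of them higher, against 3.57% of all genes. The respiratory chain and ribosomal medians lay near that of the bright genes, and no member of either list was called after slide adjustment. Their counts are thus no result about these 2 lists. Fah, an enzyme of tyrosine breakdown, had an interaction of 0.91 ± 0.15 (SE; adjusted p = 0.00023). F13b, F2 and Serpind1, genes of coagulation and its control, had 1.47, 0.66 and 1.03. All 4 of these genes were called in the slide-adjusted fit, with values of 0.59, 1.17, 0.43 and 0.76, and on slides 3 and 4 alone F2 and Serpind1 were not (adjusted p = 0.0778 and 0.111). Dhdh, a dihydrodiol dehydrogenase, had the smallest adjusted p of those that appeared upward and Ncmap and Dclk3 were other members of this class, with interactions of 1.55, 2.65 and 2.37. In the slide-adjusted fit these were 1.30, 2.39 and 2.0, and for Ncmap a normexp background gave 1.42.

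**Figure D2:**
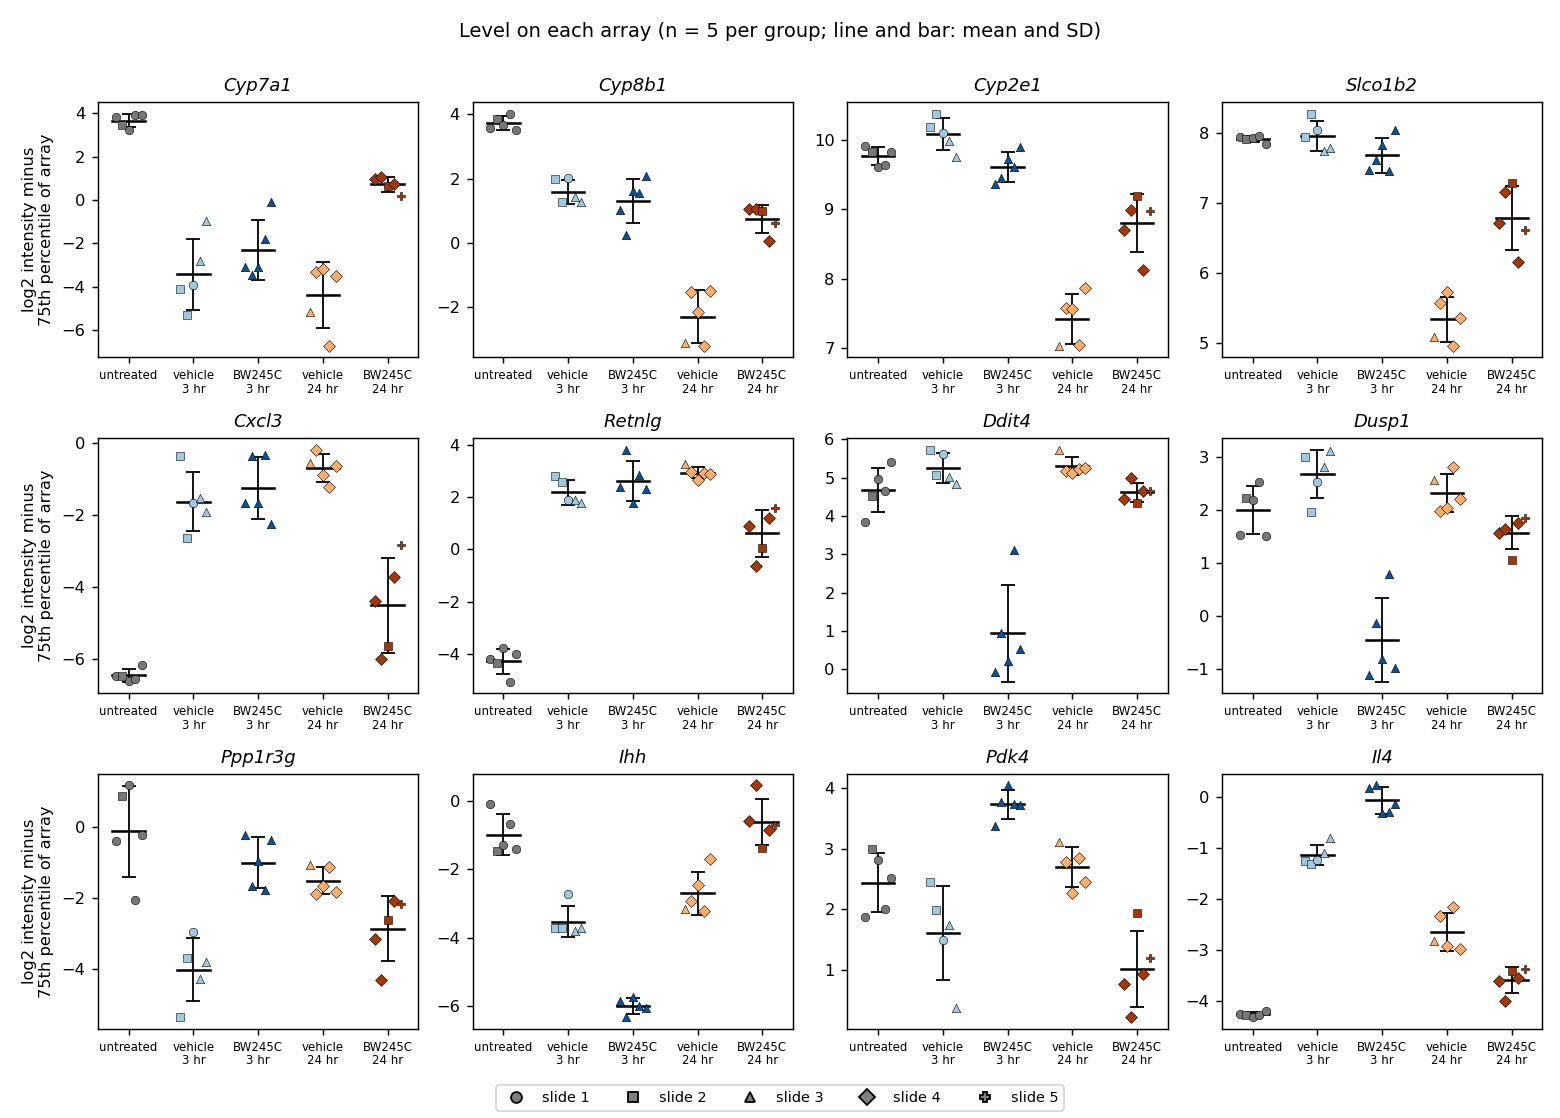
Level of 12 genes (log2 intensity minus the 75th percentile of the array, y axis) on every array of the 5 groups, with the mean and SD as lines and the slide as the symbol, n = 5 per group. Cyp7a1, Cyp8b1, Cyp2e1 and Slco1b2 separate only at 24 hr, Cxcl3 and Retnlg fall only at 24 hr, Ddit4 and Dusp1 fall mainly at 3 hr, Ppp1r3g rises at 3 hr, and Ihh, Pdk4 and Il4 change direction.

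In the other direction, neutrophil markers and the chemokine genes Cxcl3 and Cxcl1 were lower with BW245C at 24 hr, by more than at 3 hr. Of 18 measured neutrophil markers 10 had an interaction below 0 (9.84% of all genes did) and 1 above, with a median of -1.19. At 24 hr 12 of them were lower with the agonist (8.24% of all genes), and at 3 hr 1 (18.4% of all genes). The mean level of the markers on an array ranged from 0.61 to 1.56 with vehicle and from 0.24 to 1.37 with BW245C at 3 hr. At 24 hr it ranged from 1.58 to 2.02 with vehicle and from 0.070 to 1.11 with BW245C, without overlap. After slide adjustment 5 members were called lower against 2.61% of all genes. Whether fewer neutrophils or less RNA per neutrophil stood behind this cannot be told apart.

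Retnlg, a secreted protein of neutrophils, stood at 2.80, 2.57, 1.87, 1.90 and 1.76 with vehicle and 2.37, 3.81, 1.78, 2.83 and 2.30 with BW245C at 3 hr, and at 3.25, 2.96, 2.66, 2.92 and 2.86 with vehicle and 0.91, -0.63, 0.049, 1.19 and 1.56 with the agonist at 24 hr. The groups overlapped at 3 hr and were apart at 24 hr, with a fall of 4.97-fold and an interaction of -2.75 ± 0.52 (SE; adjusted p = 0.00074). Mmp8, the neutrophil collagenase, had effects of -0.013 and -2.25 and Fpr1, a receptor of formyl peptides, of 0.20 and -1.32. Prok2, a peptide that neutrophils make, was well above background on 5 vehicle and 1 BW245C array at 24 hr and on no array at 3 hr. It was 7.56-fold lower with the agonist at 24 hr (adjusted p = 4.7e-06), and the 3 hr difference could not be measured. The interactions of Retnlg, Mmp8 and Fpr1 in the slide-adjusted fit were -3.18, -2.89 and -1.96 (adjusted p = 0.0095, 0.028 and 0.032), and on slides 3 and 4 alone Mmp8 and Fpr1 were not called (adjusted p = 0.0664 and 0.0722). With a normexp background the interaction of Retnlg was -2.58 and that of Mmp8 -1.58, and the effect of Prok2 at 24 hr was -0.74 in place of -2.92.

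Cxcl3, a chemokine that attracts neutrophils, was at -0.35, -2.63, -1.66, -1.53 and -1.92 with vehicle and -1.65, -0.36, -1.67, -0.33 and -2.24 with BW245C at 3 hr, and at -0.54, -0.17, -0.88, -1.22 and -0.63 with vehicle and -4.39, -6.01, -5.65, -3.71 and -2.82 with the agonist at 24 hr. Vehicle and BW245C overlapped at 3 hr and not at 24 hr, where 2 of 5 BW245C arrays were well above background and the fall was 14.2-fold. Its interaction was -4.20 ± 0.69 (SE; adjusted p = 0.00026), and Cxcl1, a related chemokine, had -1.82 ± 0.34 (SE; adjusted p = 0.0007). Both were called after slide adjustment, with -4.49 and -1.53, and on slides 3 and 4 alone Cxcl1 was not (adjusted p = 0.0783). Under a normexp background the effect of Cxcl3 at 24 hr was -1.54 in place of -3.83 and its interaction -1.68. The chemokine list as a whole was not of 1 direction. Of its 26 measured members 14 were lower at 3 hr (18.4% of all genes) and 11 at 24 hr (8.24%). Of the same 26, 8 had an interaction above 0 (21.3% of all genes) and 4 below 0 (9.84%). After slide adjustment 0 and 3 were called, against 3.57% and 2.61% of all genes. Of 25 cytokines of T cells and inflammation 9 had an interaction below 0 and 2 above, against 9.84% and 21.3% of all genes, and 5 were called lower and 1 higher in the slide-adjusted fit, against 2.61% and 3.57%. Ifng, the cytokine of activated T and NK cells that drives ConA injury, was at 2.76, 2.17, 1.98, 1.80 and 1.69 with vehicle and 2.17, 2.20, 1.38, 1.72 and 1.19 with BW245C at 3 hr, and at -0.15, 0.39, -0.24, -0.031 and -0.66 with vehicle and -1.58, -2.27, -1.68, -1.47 and -0.98 with the agonist at 24 hr. The groups overlapped at 3 hr and were apart at 24 hr, and the interaction was -1.11 ± 0.35 (SE; adjusted p = 0.022). It was -1.64 in the slide-adjusted fit (adjusted p = 0.028) and was not called on slides 3 and 4 alone (adjusted p = 0.0678).

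Il10, an anti-inflammatory cytokine, had effects of 0.64 and -1.02 and an interaction of -1.66 ± 0.34 (SE; adjusted p = 0.0015), which was -1.34 after slide adjustment (adjusted p = 0.073) and -0.18 with a normexp background (adjusted p = 0.17). Il6 and Tnf, cytokines of macrophages and T cells, were not called, with interactions of -0.54 (adjusted p = 0.41) and -0.38 (adjusted p = 0.6). Effects of Il6 were -0.78 at 3 hr and -1.32 at 24 hr (adjusted p = 0.0064), and those of Tnf were -0.52 and -0.90. After slide adjustment the interaction of Il6 was 0.013. Cryab, a small heat shock protein, P4ha2, a collagen prolyl hydroxylase, and Eno1, a glycolytic enolase, also appeared as lower, with interactions of -0.73, -1.13 and -0.58 and, in the slide-adjusted fit, -0.81, -1.69 and -0.77. For Sult1e1, the oestrogen sulfotransferase, and Ddn, a cytoskeletal protein, the interactions of -4.03 and -2.59 had adjusted p = 0.06 and 0.071 with the slide. Ankrd22 and Gml were well above background on no vehicle array of 3 hr, and at 24 hr they were 6.04- and 3.62-fold lower with BW245C. Gml was measured on no BW245C array of 3 hr either, so its 3 hr difference could not be measured, and the effect of Ankrd22 was lower at 24 hr than at 3 hr by at least 2.47-fold. With a normexp background their effects at 24 hr were -0.67 and -1.29 in place of -2.59 and -1.86. The interaction of Ankrd22 was then -0.46, which does not reach its bound. Neither interaction held after slide adjustment (adjusted p = 0.057 and 0.058).

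Most effects that vanished were falls with BW245C at 3 hr, in 1068 of 1815 genes. Most markers of erythroid cells and platelets were lower at that time too, and their part in these falls was not tested. Of 7 erythroid markers 6 were lower at 3 hr (18.4% of all genes), and their mean level ranged from 3.68 to 4.08 with vehicle and from 1.57 to 3.29 with BW245C, against 1.69 to 2.12 and 1.72 to 2.18 at 24 hr. Of 8 platelet markers 5 were lower at 3 hr and 1, Itgb3, was higher (18.4% and 10.6% of all genes). The mean level of the 8 ranged from -0.76 to -0.33 with vehicle and from -1.41 to -0.90 with BW245C. Ddit4, Dusp1, Arrdc3, Bhlhe40 and Smad7 were among the genes that fell. Ddit4, an inhibitor of mTOR, was at 5.71, 5.07, 5.61, 5.02 and 4.84 with vehicle and -0.070, 0.95, 0.21, 3.1 and 0.53 with BW245C at 3 hr, and at 5.73, 5.17, 5.12, 5.23 and 5.25 with vehicle and 4.45, 4.99, 4.35, 4.64 and 4.65 with the agonist at 24 hr. At 3 hr all BW245C arrays were lower, by 19.8-fold on the mean with 1 array of 3.1 nearest to vehicle, and at 24 hr they were also lower than every vehicle array, by 1.61-fold. Untreated livers ranged from 3.85 to 5.41 (median 4.65), and all 5 BW245C arrays of 3 hr lay below them. The interaction was 3.62 ± 0.56 (SE; adjusted p = 0.00015), and 3.45 in the slide-adjusted fit.

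Dusp1, a phosphatase that switches off MAP kinases, showed the same order of values. They were 3.00, 1.96, 2.53, 2.82 and 3.11 with vehicle and -1.11, -0.12, -0.80, 0.81 and -0.97 with BW245C at 3 hr, and 2.57, 1.98, 2.05, 2.81 and 2.21 with vehicle and 1.57, 1.66, 1.07, 1.76 and 1.85 with the agonist at 24 hr. BW245C arrays were lower at both times without overlap, by 8.71-fold at 3 hr (adjusted p = 4.1e-07) and 1.68-fold at 24 hr (adjusted p = 0.07). Its interaction was 2.38 ± 0.43 (SE; adjusted p = 0.00051). Gdf15, a stress-induced hormone, passed at both times with effects of -3.61 and -1.03, and its interaction was 2.58 ± 0.54 (SE; adjusted p = 0.0016). Jun, a component of AP-1, likewise passed at both, with -2.21 and -0.67 and an interaction of 1.54 ± 0.26 (SE; adjusted p = 0.00035). Duoxa2, the maturation factor of the oxidase Duox2, was well above background on no BW245C array at 3 hr, so that its fall there was at least 3.36-fold, with -1.52 at 24 hr and an interaction of at least 1.17-fold. After slide adjustment the interactions were 2.79 for Dusp1, 3.21 for Gdf15 and 1.33 for Jun, and Duoxa2 was called (adjusted p = 0.014). For Duoxa2 a normexp background turned the sign to -0.18 (adjusted p = 0.58).

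Genes that respond to cAMP were not of 1 direction. Of 22 measured, 6 had an interaction above 0 and 3 below 0, against 21.3% and 9.84% of all genes, which is no result about the list. At 3 hr 3 were higher and 9 lower with BW245C (10.6% and 18.4% of all genes), and at 24 hr 1 was higher and 5 lower (18% and 8.24%). The slide-adjusted fit called 3 higher and 2 lower, against 3.57% and 2.61% of all genes. Sik1, a kinase that is induced by cAMP, had effects of -0.91 and 0.023, and Rgs2, a regulator of G protein signalling, of -1.09 and -0.029, with interactions of 0.93 and 1.06. Rgs2 was called in the slide-adjusted fit (adjusted p = 0.032) and not on slides 3 and 4 alone (adjusted p = 0.0548). The promoter of Dusp1 is shown because cAMP acts through CREB, whose palindrome TGACGTCA is present once in its window. The 250 bases before the start (RefSeq, GRCm38.p6) lie at chr17:26508473-26508722 on the minus strand, and capitals mark the match.
Dusp1: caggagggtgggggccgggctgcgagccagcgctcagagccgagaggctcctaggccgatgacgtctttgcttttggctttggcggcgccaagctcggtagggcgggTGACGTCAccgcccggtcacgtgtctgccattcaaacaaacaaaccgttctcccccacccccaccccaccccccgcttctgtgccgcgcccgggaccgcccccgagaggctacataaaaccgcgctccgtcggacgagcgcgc
The palindrome occurs in 1.77% of the promoters of 27025 genes, in 2.64% of those of tested genes, and in 3.86% of those that vanished with a positive interaction. A match is a description of the letters only.

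Plcl2, Lrch1 and Slc43a1 had the smallest adjusted p-values of the effects that vanished. Plcl2, a phospholipase C-like protein, was at 3.94, 3.69, 3.51, 3.78 and 3.35 with vehicle and 2.22, 2.42, 2.15, 2.37 and 1.85 with BW245C at 3 hr, and at 1.90, 1.86, 2.04, 2.09 and 1.90 with vehicle and 2.09, 2.36, 2.28, 1.88 and 2.22 with the agonist at 24 hr. The arrays were apart at 3 hr and overlapped at 24 hr, and the interaction was 1.66 ± 0.17 (SE; adjusted p = 3.4e-06). Slc43a1, a transporter of large amino acids, Lrch1 and Arid4a had effects of -2.14, -1.44 and -1.04 at 3 hr and 0.025, -0.024 and -0.10 at 24 hr. Jak3, a kinase of cytokine receptors, had -1.03 and 0.24, and Arrdc3, an arrestin-like adaptor, had -2.14 and 0.67. Bhlhe40, a transcriptional repressor of the clock, had -2.60 and -0.65. All of these 7 were called in the slide-adjusted fit, from 0.92 in Jak3 to 2.25 in Arrdc3, and on slides 3 and 4 alone Bhlhe40 was not (adjusted p = 0.0903). With a normexp background Arrdc3 had an interaction of 1.95 in place of 2.81. Vegfa, the angiogenic factor, had -1.63 and -0.34 and an adjusted p of 0.055 with the slide.

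Counts of other lists fell with the slide in the fit. Of 24 proteasome and ubiquitin genes 9 had an interaction above 0, of 28 acute phase genes 15 and of 25 cholesterol synthesis genes 12. None was below 0. Over all genes 21.3% were above 0, and among 3021 genes of the brightest of 5 equal groups 1190 were. The proteasome count lies near the share of bright genes and is no result about that list. The slide-adjusted fit called 1, 1 and 2, against 3.57% of all genes. There the proteasome and acute phase counts lie near that share and are no result about those lists. The immunoproteasome subunits Psmb8, Psmb9 and Psmb10 had effects of -0.85, -1.09 and -0.71 at 3 hr and interactions of 1.08, 1.03 and 0.88, with adjusted p = 0.14, 0.14 and 0.15 with the slide. The acute phase genes Orm3, Crp and Saa3 had interactions of 0.88, 1.12 and 1.35, with adjusted p = 0.048, 0.053 and 0.14 with the slide. Mvd, an enzyme of cholesterol synthesis, had 2.08 and an adjusted p of 0.074 there.

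Effects in the other direction, higher at 3 hr and vanished at 24 hr, were led by Ppp1r3g, a subunit that directs a phosphatase to glycogen. It was at -5.36, -3.68, -2.96, -4.28 and -3.81 with vehicle and -0.23, -1.67, -0.97, -1.78 and -0.39 with BW245C at 3 hr, and at -1.08, -1.89, -1.66, -1.14 and -1.84 with vehicle and -3.16, -4.29, -2.63, -2.09 and -2.17 with the agonist at 24 hr. The agonist arrays were higher than every vehicle array at 3 hr and lower than every one at 24 hr, by 8.04-fold and 2.54-fold, although the fall at 24 hr did not pass (adjusted p = 0.061). Its interaction was -4.35 ± 0.74 (SE; adjusted p = 0.00033), and -4.58 in the slide-adjusted fit. A normexp background was also tried, where its effect at 3 hr was 1.24 in place of 3.01 and the interaction -1.84. Insig2, an inhibitor of sterol synthesis, had effects of 1.37 and 0.0040, and Rora, a nuclear receptor of the clock, of 1.0 and -0.081. Tns1, a focal adhesion protein, had 1.08 and 0.22, C5ar2, a receptor of complement C5a, 1.11 and 0.034, and Eva1c 1.44 and -0.28. These 5 were called after slide adjustment, from -1.93 in Eva1c to -0.90 in Tns1, and with a normexp background C5ar2 had -0.47 in place of -1.08 and Eva1c -0.98 in place of -1.71.

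Among 24 genes of p53 and apoptosis 3 had an interaction above 0 and 4 below 0, against 21.3% and 9.84% of all genes. In the slide-adjusted fit 0 and 5 were called, against 3.57% and 2.61%. Bcl2l1, which protects from apoptosis, was at 6.05, 4.84, 5.21, 4.39 and 4.32 with vehicle and 5.74, 5.80, 6.00, 6.64 and 6.24 with BW245C at 3 hr, and at 5.65, 5.47, 5.64, 6.02 and 5.71 with vehicle and 4.84, 4.68, 5.26, 5.16 and 5.57 with the agonist at 24 hr. The groups overlapped at both times, and its interaction of -1.72 ± 0.34 (SE; adjusted p = 0.0012) was -2.56 after slide adjustment (adjusted p = 0.0008). Cdkn1a, a cell cycle inhibitor, and Trp53inp1, a target of p53, had interactions of -1.62 and -1.04, and -2.77 and -1.55 with the slide. Without the slide these 3 vanished, and in the slide-adjusted fit they reversed. There Bcl2l1 had effects of 1.64 (adjusted p = 0.00035) and -0.92 (adjusted p = 0.0042). Cdkn1a had 1.81 and -0.97 (adjusted p = 0.0012 and 0.015), and Trp53inp1 0.94 and -0.61 (adjusted p = 0.0085 and 0.022). The circadian clock list had 4 above and 4 below 0 of 19 (21.3% and 9.84% of all genes). The count above 0 lies near the share of all genes and is no result about the list. Of the called members of this list 7 had effects at 3 hr only, against 1815 of the 4701 called over all genes. The positive ones included Bhlhe40 and the negative ones Rora, and the slide-adjusted fit called 3 higher and 3 lower, against 3.57% and 2.61% of all genes.

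Several inflammatory lists were lowered by BW245C at both times, where 18.4% of all genes were lower at 3 hr and 8.24% at 24 hr. Of 18 targets of NF-kappaB, 13 were lower at 3 hr and 16 at 24 hr, and 1 had an interaction above 0 and 4 below 0. Of 23 immediate early genes 11 and 19 were lower at 3 hr and 24 hr, with 2 and 4, and of 23 type I interferon genes 18 and 12, with 2 and 2. Of 27 genes induced by interferon gamma 20 and 14 were lower, with 8 and 2. Over all genes 21.3% had an interaction above 0 and 9.84% below 0. The slide-adjusted fit called 0 and 1 of the NF-kappaB targets and 0 and 0 of the interferon gamma genes, against 3.57% and 2.61% of all genes. A count that misses the threshold does not show that the effects were equal. In the prostanoid list, which holds the enzymes and receptors of prostaglandins, 5 of 25 had an interaction above 0 and 0 below 0, near the 21.3% of all genes above 0, and 1 was called in the slide-adjusted fit (3.57% of all genes), so these counts are no result about the list. Hpgd, which degrades prostaglandins, had effects of -0.31 and 0.86 and an interaction of 1.16 ± 0.17 (SE; adjusted p = 0.00013), 0.81 with the slide, and was not called on slides 3 and 4 alone (adjusted p = 0.0556). Ptgr2, a prostaglandin reductase, and Slco2a1, a prostaglandin transporter, had 0.61 and 0.75 and were not called with the slide. Ptgds, the synthase of prostaglandin D2 in several tissues, had -1.57 (adjusted p = 0.059) and passed when any of 5 arrays was left out, with -1.86 to -1.73.

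Other interactions below 0 were not called after slide adjustment. Gast, the gastrin gene, was at -2.44, -2.85, -1.99, -0.16 and 0.20 with vehicle and -0.011, 0.55, 0.90, 0.0087 and 1.93 with BW245C at 3 hr, and the 2 vehicle arrays on slide 3 were the highest of their group, at -0.16 and 0.20. Its interaction was -3.01 and -0.74 in the slide-adjusted fit (adjusted p = 0.55). Cox17, a copper chaperone, went from -2.63 to -0.50, and Dbh, the enzyme that makes noradrenaline, from -2.96 to 0.055. Under a normexp background the 3 had -2.05, -1.02 and -0.74. Bsn, a protein of nerve terminals that was well above background on no BW245C array at 24 hr, had an effect at 24 hr that was lower than that at 3 hr by at least 4.50-fold. Its interaction was -1.19 with the slide (adjusted p = 0.5) and -0.28 with a normexp background (adjusted p = 0.41), and neither reaches that bound.

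**Figure D3:**
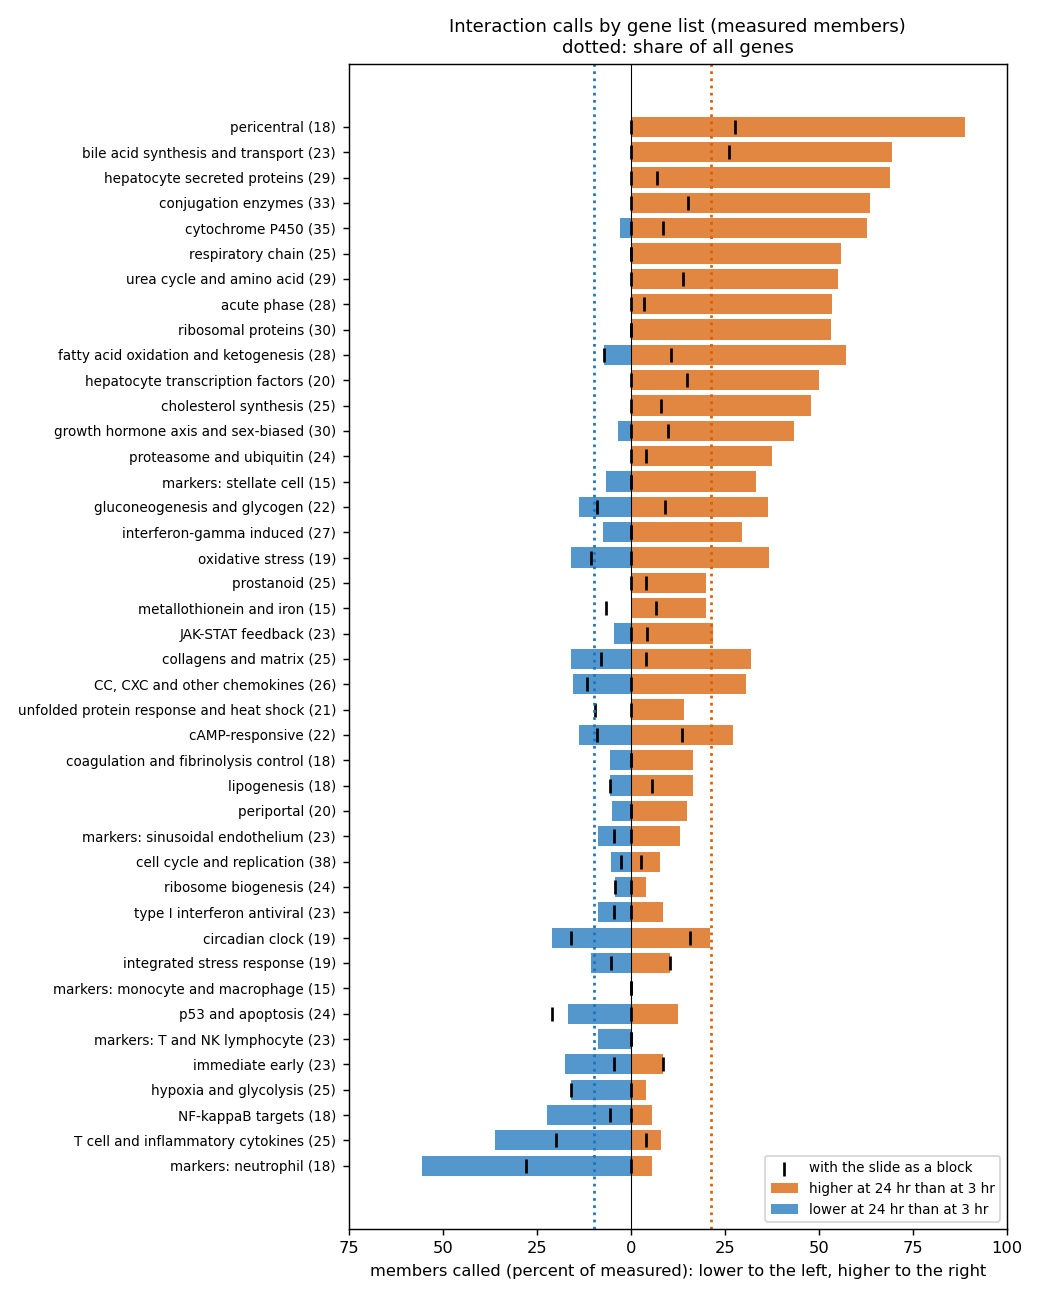
Gene lists with 15 or more measured members (number in parentheses), with bars for the percent of members with an interaction above 0 (right) and below 0 (left), dotted lines for the share of all genes and black ticks for the same shares after slide adjustment. Pericentral and bile acid genes reach farthest to the right, and neutrophil markers farthest to the left.

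**Figure D4:**
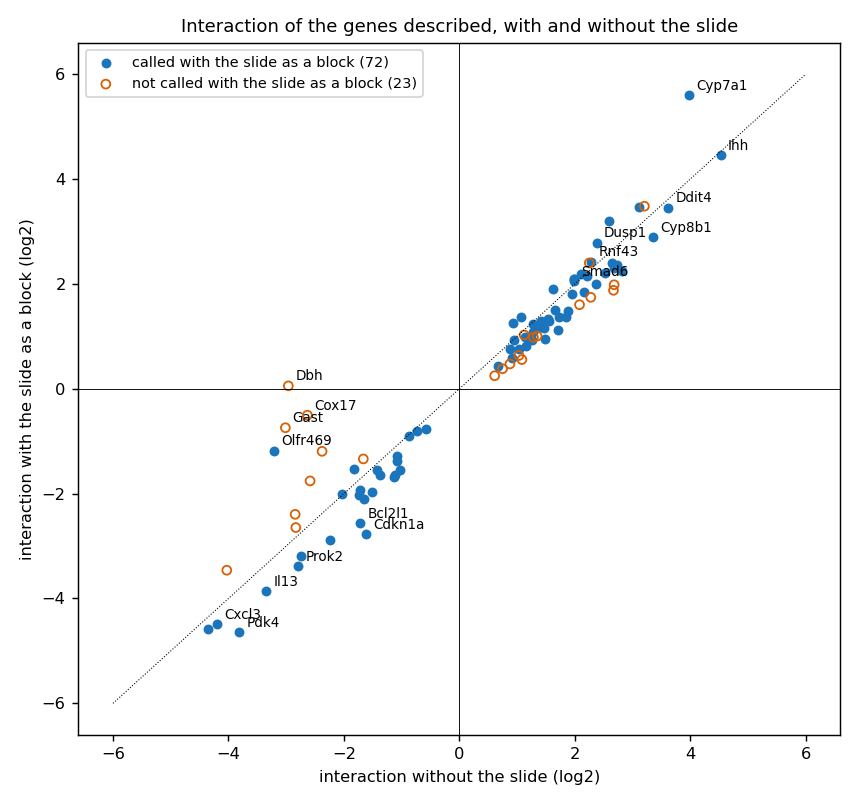
Fitted interaction of the 95 called genes described here without the slide (log2, x axis) and in the slide-adjusted fit (log2, y axis), with filled points for the 72 genes called in both and open points for the 23 that were not, and a dotted line of equality. Values of genes with a group below background depend on signals below it. Ihh and Ddit4 lie above 3 on both axes, and Gast, Cox17 and Dbh lie closer to 0 on the y axis than on the x axis.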

How the data were processed

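Liver RNA of 25 mice, 5 in each of 5 groups by the labels, was hybridised to one-colour Agilent arrays. The deposited intensity values were extracted with Agilent Feature Extraction, per the file headers (version 10.7.3.1, while the submitters' processing notes name 9.1), background-subtracted and detrended, on probes designed for mm9. The deposited series matrix holds the same intensities times 1 factor per array, by a rule that is not given in the sources used here.

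From the deposited intensity values, a log2 level was computed for 59305 non-control spots by subtracting, on each array, the 75th percentile of the log2 processed signal, spots of a probe were averaged, and 26582 of 55681 probes had a symbol. A gene was tested on its brightest probe that was well above background on at least 5 of 25 arrays. One mean per group was fitted with limma 3.58.1 (R 4.3.3), and p-values were adjusted by Benjamini-Hochberg over 15104 genes, at 0.05. A bound replaces a fold where a group was below background on every array: the mean of the measured group against, per array, the higher of the lowest signal well above background and the signal of the probe. Bounds rest on the processed signal and can exceed the sizes found with a normexp background.

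The fit was run on simulated data with known changes and independent noise. It found 19 of 50 changes of 1.5-fold, 34 of 50 of 2-fold and 49 of 50 of 4-fold, and called 8 of 14904 unchanged genes. The simulation held no slide effect, so it cannot show how the fit deals with the slide. The genes named are taken from a rule: the 10 largest interactions in each direction with non-overlapping arrays, 4 in each direction with an undetected group, the 5 smallest p-values in each class and direction, up to 3 called members of each of 55 lists, and fixed cytokine and prostaglandin D2 genes. The 98 described were picked from these after their values were seen, and some genes that the rule names are not reported here. The members and lists were chosen with earlier results of these data known. Alternatives covered background, normalization, filter, slide, replicate number, variance model, probe choice, source of values, threshold and each array left out. Promoters (250 bases, RefSeq GRCm38.p6) were matched by symbol for 79 of 98 genes.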

Additional observations from a re-analysis of the deposited data

Results flagged for a closer look

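In 18 of 392 groups of 5 arrays looked at (4.59%), 1 array lay apart from the other 4 by a gap above the 95% critical value of Dixon's test, which chance gives in about 1 of 20. No cause was tested. Dclk3 was at -1.81 in ConA+vehicle_3hr replicate 4, with the other 4 arrays from -0.97 to -0.73. Dhdh was at 4.99 in ConA+BW245C_3hr replicate 5, with the other 4 arrays from 4.73 to 4.79. Gulo was at 6.5 in ConA+BW245C_24hr replicate 3, with the other 4 arrays from 5.53 to 5.81. Gml was at -4.90 in ConA+vehicle_3hr replicate 5, with the other 4 arrays from -6.23 to -6.01. Gml was at -2.82 in ConA+BW245C_24hr replicate 2, with the other 4 arrays from -1.33 to -0.91. Ddit4 was at 5.73 in ConA+vehicle_24hr replicate 1, with the other 4 arrays from 5.12 to 5.25. Bhlhe40 was at 3.44 in ConA+BW245C_3hr replicate 4, with the other 4 arrays from 1.68 to 1.77. Arid4a was at 0.45 in ConA+vehicle_3hr replicate 5, with the other 4 arrays from 0.16 to 0.22. Psmb10 was at 6.22 in ConA+BW245C_3hr replicate 5, with the other 4 arrays from 6.68 to 6.84. Crp was at 4.84 in ConA+BW245C_24hr replicate 4, with the other 4 arrays from 5.25 to 5.40. Saa3 was at 7.82 in ConA+BW245C_3hr replicate 5, with the other 4 arrays from 8.86 to 9.03. C5ar2 was at -3.1 in ConA+vehicle_3hr replicate 4, with the other 4 arrays from -2.55 to -2.42. C5ar2 was at -1.15 in ConA+BW245C_24hr replicate 4, with the other 4 arrays from -0.79 to -0.70. Bsn was at -0.14 in ConA+BW245C_3hr replicate 3, with the other 4 arrays from -4.03 to -3.45. Ihh was at -2.72 in ConA+vehicle_3hr replicate 3, with the other 4 arrays from -3.80 to -3.71. Cyp2g1 was at -1.12 in ConA+vehicle_24hr replicate 4, with the other 4 arrays from -2.84 to -2.74. Itgb3 was at 0.84 in ConA+BW245C_24hr replicate 2, with the other 4 arrays from 1.83 to 2.19. Tnf was at 1.54 in ConA+vehicle_3hr replicate 1, with the other 4 arrays from 0.48 to 0.70.

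The interaction was called in 95 of the 98 genes described, by limma with Benjamini-Hochberg adjustment, and in 93 of them the difference could be measured or bounded at both times. Most of the genes were named because they were called, so this count was set by the choice. Over all genes 31.1% were called. The slide-adjusted fit did not call 23 of the 95. Above 0 among genes whose effect appeared at 24 hr, the interaction was 3.98 for Cyp7a1, 3.35 for Cyp8b1, 2.10 for Akr1d1, 1.72 for Slco1b2, 1.85 for Cyp2e1, 1.88 for Cyp2c54, 1.98 for Sult1c2, 1.70 for Gsta3, 2.68 for Hsd3b2, 2.52 for Hsd3b6, 2.74 for Hsd17b6 and 2.28 for Igfals. Above 0 among further genes whose effect appeared at 24 hr, the interaction was 2.68 for Keg1, 2.65 for Ncmap, 2.37 for Dclk3, 1.55 for Dhdh, 1.47 for F13b, 0.66 for F2, 1.03 for Serpind1, 0.91 for Fah, 1.49 for Gulo, 1.16 for Hpgd and 0.75 for Slco2a1. Below 0 among genes whose effect appeared at 24 hr, the interaction was -4.20 for Cxcl3, -1.82 for Cxcl1, -2.75 for Retnlg, -2.24 for Mmp8, -1.52 for Fpr1, -4.03 for Sult1e1, -2.59 for Ddn, -0.73 for Cryab, -1.11 for Ifng, -1.66 for Il10, -1.13 for P4ha2 and -0.58 for Eno1. Above 0 among genes whose effect vanished after 3 hr, the interaction was 3.62 for Ddit4, 2.38 for Dusp1, 2.81 for Arrdc3, 0.93 for Sik1, 1.06 for Rgs2, 1.63 for Smad7, 1.95 for Bhlhe40, 1.66 for Plcl2, 2.17 for Slc43a1, 1.41 for Lrch1, 0.94 for Arid4a and 1.27 for Jak3. Above 0 among further genes whose effect vanished after 3 hr, the interaction was 1.28 for Vegfa, 1.08 for Psmb8, 1.03 for Psmb9, 0.88 for Psmb10, 0.88 for Orm3, 1.12 for Crp, 1.35 for Saa3 and 2.08 for Mvd. Below 0 among genes whose effect vanished after 3 hr, the interaction was -4.35 for Ppp1r3g, -1.72 for Bcl2l1, -1.62 for Cdkn1a, -1.04 for Trp53inp1, -1.37 for Insig2, -1.08 for Rora, -0.87 for Tns1, -1.08 for C5ar2, -1.71 for Eva1c, -3.01 for Gast and -2.63 for Cox17. Above 0 among genes whose effect reversed, the interaction was 0.61 for Ptgr2, 1.27 for Acvr1, 1.98 for Smad6, 1.99 for Olfml1, 1.41 for Fgfr3, 1.33 for Cebpa, 1.28 for Prox1, 1.13 for Nr5a2, 2.29 for Rnf43, 3.11 for Cyp2g1 and 2.67 for Atp6v0d2. Below 0 among genes whose effect reversed, the interaction was -3.81 for Pdk4, -2.03 for Il4, -3.35 for Il13, -1.65 for Itgb3, -1.43 for Camk2n2, -1.73 for Grrp1 and -3.21 for Olfr469. Above 0 among genes whose effect passed at both times in the same direction, the interaction was 2.58 for Gdf15 and 1.54 for Jun. Below 0 among genes whose effect passed at neither time, the interaction was -2.96 for Dbh. Where a group was below background on every array, the effect at 24 hr was above that at 3 hr by at least 2.41-fold for Hsd3b1, 1.74-fold for Clec2h, 6.89-fold for Ihh and 1.17-fold for Duoxa2. It was below it by at least 2.47-fold for Ankrd22 and 4.50-fold for Bsn. These bounds rest on the processed signal of the scanner. With a normexp background some were not reached, with interactions of 0.58 for Clec2h, -0.18 for Duoxa2, -0.46 for Ankrd22 and -0.28 for Bsn.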

How the results depend on the processing

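Among the 98 genes described, all kept their direction under every alternative except Dbh, whose interaction was 0.055 with the slide as a block, 0.065 within slides 3 and 4, 0.097 with quantile normalization and the slide as a block and 0.11 with quantile normalization within slides 3 and 4, Duoxa2, at -0.18 with a normexp background, and 2 genes that were not called, Il6, at 0.013 with the slide as a block and 0.036 on slides 3 and 4 alone, and Tnf, at 0.0066 without ConA+BW245C_24hr replicate 2. The cause was not tested. The 0.01 threshold, the 2-fold minimum, a variance that follows intensity, the 20 arrays alone and each untreated array left out keep the estimates. These alternatives could not turn a direction. Some of the 98 genes did not pass the filter on all 25 arrays and had no direction there. Counts that moved by over 1.5 times follow, as interactions above 0 (higher) and below 0 (lower), effects at each time, and the classes of the interaction genes. The slide as a block gave 539 higher, 394 lower, 1785 at 3 hr, 486 appeared, 317 vanished, 105 reversed, 15 neither and 10 kept. The slide as a random block gave 1549 higher, 567 lower, 2606 at 3 hr, 1166 appeared, 654 vanished, 169 reversed, 111 neither and 16 kept. Within slides 3 and 4 there were 267 higher, 187 lower, 1035 at 3 hr, 2031 at 24 hr, 158 appeared, 216 vanished, 46 reversed, 29 neither and 5 kept. An adjusted p under 0.01 gave 1620 higher, 439 lower, 2170 at 3 hr, 2260 at 24 hr, 971 appeared, 661 vanished, 74 reversed, 350 neither and 3 kept. A 2-fold minimum gave 635 higher, 535 lower, 571 at 3 hr, 639 at 24 hr, 473 appeared, 439 vanished, 156 reversed, 92 neither and 10 kept. The series matrix values gave 1435 higher and 3052 lower. Quantile normalization gave 397 neither, array weights 452 neither, no filter 25 kept, and the 20 arrays of the 4 groups alone 206 reversed and 19 kept. Chosen after seeing the data, quantile normalization with the slide as a block gave 607 higher, 492 lower, 1770 at 3 hr, 618 appeared, 334 vanished, 119 reversed, 18 neither and 10 kept, and within slides 3 and 4 it gave 279 higher, 201 lower, 1008 at 3 hr, 2277 at 24 hr, 183 appeared, 219 vanished, 49 reversed, 26 neither and 3 kept.

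Leaving out 1 array at a time gave 2431 to 3894 genes with an interaction above 0 and 1016 to 1854 below 0, 3136 to 5511 with an effect at 3 hr and 2888 to 4337 at 24 hr. The classes ranged from 1245 to 2135 appeared, 1181 to 2700 vanished, 214 to 507 reversed, 342 to 859 neither and 23 to 62 kept. Without ConA+vehicle_3hr replicate 2, 1181 vanished, without ConA+vehicle_24hr replicate 1, 214 reversed and 23 kept, and without ConA+BW245C_24hr replicate 3 or 5, 342 and 399 passed at neither time. The kept genes were 28 without ConA+vehicle_3hr replicate 1 or ConA+vehicle_24hr replicate 4, 29 without ConA+BW245C_3hr replicate 3 or ConA+vehicle_24hr replicate 2 or 3, and 25 without ConA+BW245C_24hr replicate 3. Hsd3b1 lost its call, at 2.58 to 3.23, without ConA+vehicle_3hr replicate 1, 2 or 4, ConA+BW245C_3hr replicate 1 or 5, ConA+vehicle_24hr replicate 1, 2, 3 or 4, or ConA+BW245C_24hr replicate 1 or 3. Ptgds gained one, at -1.86 to -1.73, without ConA+vehicle_3hr replicate 3 or 5, ConA+BW245C_3hr replicate 4 or 5, or ConA+vehicle_24hr replicate 2. The fewest interactions, 3447, came without ConA+BW245C_24hr replicate 3 and the most, 5724, without ConA+vehicle_3hr replicate 5. Without ConA+BW245C_24hr replicate 4, the array with pancreas transcripts, 5087 were called. The replicate block, with the replicate number as a block, gave 4556 genes, 3165 higher and 1391 lower, of which 4402 were the same genes, and changed the call of none of the 98 genes. The numbers did not pair the samples, since 4 of 25 arrays were most like an array with the same number, and deviations of same-numbered arrays had a median correlation of -0.014. A gene below background has only a bound, and precision is limited by having 5 arrays a group, and fewer in some groups on slides 3 and 4 alone.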
